A study of Macaca fascicularis with 64 samples.

Results

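The transcripts of 5 transcription factor genes, HNF4A, HNF4G, FOXA1, FOXA2 and FOXA3, were followed in single pancreatic islet cells of cynomolgus monkeys (Macaca fascicularis), 5 of the 21041 genes counted. The 5 genes were taken by name, as the HNF4 nuclear receptors and the FOXA forkhead factors, with no threshold on their values, although earlier results of these data were known. The cells came from 16 animals, for which the labels name no treatment, in 2 age groups, young (n = 8) and old (n = 8), each split evenly into females and males. Cells were picked by hand from dissociated islets of the tail part of the pancreas and sequenced with unique molecular identifiers (UMIs), tags that count each captured mRNA molecule once, in 4 libraries per monkey. Of 6141 barcoded cells, 5908 had over 800 detected genes and over 10000 UMIs. Each was typed by its most abundant hormone transcript, which gave 4503 α-cells (glucagon, GCG), 1219 β-cells (insulin, INS), 112 δ-cells (somatostatin, SST) and 74 PP-cells (pancreatic polypeptide, PPY). Each monkey was represented by its summed cells of a type where it had at least 5 of them, which was so in 16 monkeys for α- and β-cells, in 11 for δ-cells (7 young, 4 old) and in 6 for PP-cells (2 young, 4 old). Each monkey was sampled on a day of its own, so the monkey and its day of collection cannot be told apart.

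HNF4A and its close relative HNF4G are nuclear receptors that bind DNA as dimers at the promoters and enhancers of genes of liver, gut, kidney and islet. Loss of 1 working copy of HNF4A causes a form of maturity-onset diabetes of the young. FOXA1, FOXA2 and FOXA3 are pioneer factors, proteins that bind their sites in closed chromatin and help to open it for other factors, the HNF4 receptors among them. FOXA2 is required for the maturation of α-cells and for the expression of the ATP-sensitive potassium channel of β-cells, while FOXA3 is best known in liver.

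The depth was 20719761 to 34053080 UMIs per monkey over 338 to 381 retained cells. The median UMIs per cell were 64894 in α-cells, 74425 in β-cells, 43776 in δ-cells and 45772.5 in PP-cells. Each hormone was highest in the type named for it, but other types also held it, and β-cells had a mean of 22849 CPM (the usual depth-scaled unit, here gene UMIs of a sum scaled to a fixed total) of GCG, 30.0% of the level in α-cells. The leading hormone was under 4 times the second hormone in 835 of the 1219 β-cells, 72 of the 112 δ-cells, 66 of the 74 PP-cells and 299 of the 4503 α-cells. The 5 immune, 5 endothelial and 5 stellate markers each summed to a mean of at most 30.4 CPM in any type, and CD3E, a T-cell gene, had 0 UMIs in all sums. The 2 acinar markers summed to 0 to 694 CPM in α-cells and 0 to 98.1 in β-cells. The 5 ductal markers summed to 23.1 to 281 CPM in α-cells and 34.7 to 5259 in β-cells, mostly from SPP1 (mean 70.2 in α-cells and 1245 in β-cells), whereas KRT19 had means of 15.7 and 1.67 CPM and CFTR was at 0 in all β-, δ- and PP-cell sums. Without the 41 α-cells and 40 β-cells led by markers of other cell types, the HNF4A log2 fold change, alpha minus beta, was 1.59, and those of FOXA2 and FOXA1 were 0.73 and 2.06, close to the values with those cells, and all 3 remained called by edgeR. RNA of other cells within the remaining cells was not tested. The same 96 barcode sequences were used in every library, and no 2 cells had identical counts.

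FOXA2 had the highest level of the 5 genes in all 4 cell types, with HNF4A and FOXA3 next and close to each other in δ-cells, whereas FOXA1 and HNF4G were close to the limit of detection in α- and β-cells. A UMI counts a molecule whatever its length, but capture differs between genes, so this order of levels was not tested. FOXA2 had 87.8 ± 21.8 CPM (SD over monkeys) in α-cells, 56.2 ± 24.1 in β-cells, 86.5 ± 53.8 in δ-cells and 109 ± 63.9 in PP-cells. HNF4A had 34.5 ± 14.5 CPM in α-cells, 10.96 ± 4.07 in β-cells, 31.8 ± 33.1 in δ-cells and 27.8 ± 16.5 in PP-cells. The levels of FOXA3 were 16.3 ± 4.66 CPM in α-cells, 12.3 ± 9.81 in β-cells, 31.8 ± 30.5 in δ-cells and 22.3 ± 25.0 in PP-cells. The spread over monkeys was wide in δ-cells, where the coefficient of variation of HNF4A was 1.04 against 0.421 in α-cells. Fewer cells that express a gene and less RNA per cell cannot be told apart in such sums.

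**Figure D1:**
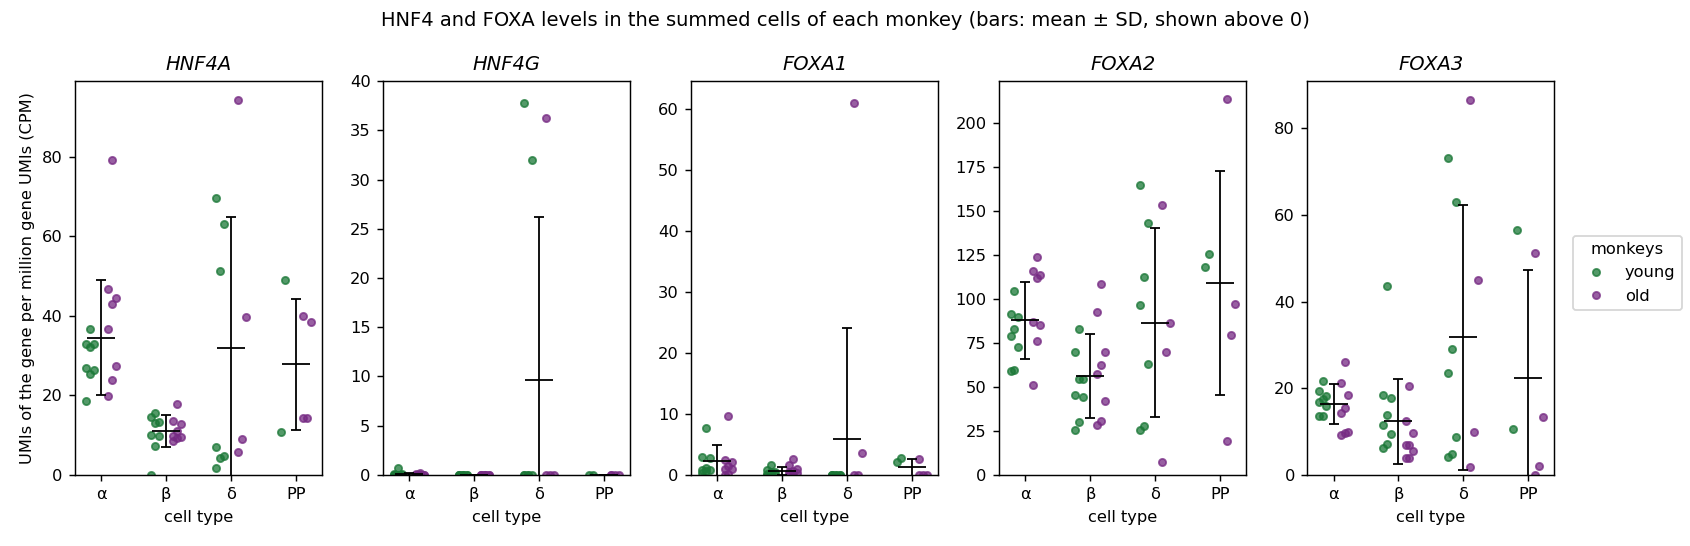
Each point is the level of a gene in the summed cells of a type of 1 monkey, in CPM (linear axis, a scale of its own per gene), for young (green) and old (purple) monkeys, with the mean and SD over all monkeys of the type in black. HNF4A in α-cells (18.6 to 79.1 CPM) lies wholly above HNF4A in β-cells (0 to 17.7 CPM), while the δ-cell points of HNF4A (1.81 to 94.2 CPM) and FOXA2 (7.08 to 165 CPM) are widely spread.

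HNF4A was higher in α-cells than in β-cells, with no overlap between their summed CPM. Its lowest level among the 16 α-cell sums was 18.6 CPM, the median 32.4 and the highest 79.1. Among the 16 β-cell sums the lowest was 0, the median 10.4 and the highest 17.7 CPM. On the CPM scale the 2 groups did not overlap, and α-cells were above β-cells in all 16 monkeys. The 0 came from young female 2, which had only 11 β-cells, and a count of 0 there still allowed 4.82 CPM. In the fit with edgeR's quasi-likelihood test and the monkey as a block, HNF4A was higher in α-cells by 1.58 on the log2 scale (SE 0.36, adjusted p = 0.00067). The same test called 3222 of 12899 genes between α- and β-cells (25.0%), 2105 higher in α-cells (16.3%) and 1117 lower (8.66%), and the median of all tested genes was 0.11, so the members' values stand relative to that shift. On the mean over cells of log2(CPM/10 + 1), HNF4A was at 1.09 ± 0.22 in α-cells and 0.58 ± 0.22 in β-cells. The groups overlapped on that scale, with 0.69 to 1.42 in α-cells and 0 to 0.87 in β-cells. Within monkeys, HNF4A was higher in α-cells in 16 of 16. An exact two-sided sign-flip test gave p = 3.05e-05, the smallest value it can give here.

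FOXA2 was also higher in α-cells, by a smaller margin and with overlapping groups. The α-cell sums had a lowest level of 51.0 CPM, a median of 86.3 and a highest of 124. The corresponding β-cell values were 25.7, 54.4 and 108 CPM. Every monkey had more FOXA2 in its α-cells than in its β-cells on the CPM scale, although the highest β-cell sum lay above the median of the α-cell sums. The fitted difference was 0.69 on the log2 scale (SE 0.24, adjusted p = 0.024), which lost its call without old female 4 (adjusted p = 0.053) or old male 2 (adjusted p = 0.058), and the exact sign-flip test on the mean log2 level gave p = 0.000214 with α-cells higher in 14 of 16 monkeys.

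FOXA3 did not pass the test across all 4 types. Its α-cell sums had a lowest level of 9.16 CPM and a highest of 26.1. Its β-cell sums ran from 3.88 to 43.6 CPM with a median of 9.46. The highest β-cell sum, of young male 3, owed 59.8% of its UMIs to 1 cell, and the groups overlapped over most of their range. The fit gave 0.54 on the log2 scale (SE 0.39, adjusted p = 0.35, 95% interval -0.23 to 1.296), with α-cells higher in 12 of 16 monkeys. With α- and β-cell sums fitted alone, an alternative chosen after seeing the data, the difference was 0.64 with an adjusted p of 0.024, and with at least 20 cells per sum it was 0.71 with an adjusted p of 0.019. The exact sign-flip test on the mean log2 level of FOXA3 gave p = 0.0045, with 12 of 16 monkeys higher in α-cells.

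FOXA1 was scarce in both types. In α-cells its sums ran from 0 to 9.71 CPM with a median of 1.11, and in β-cells from 0 to 2.54 CPM with a median of 0.469. The 2 highest α-cell sums were those of old female 4 and young female 2, and 70.0% of the UMIs of the former came from 1 cell. The fitted difference was 2.08 on the log2 scale (SE 0.69, adjusted p = 0.020), and it lost its call with sex and age in place of the monkey block (1.69, adjusted p = 0.086). In the exact sign-flip test on the mean log2 level, FOXA1 was higher in α-cells in 11 of 16 monkeys (p = 0.027). HNF4G did not pass the filter on low counts. It had 22 UMIs in 12 of the 4503 α-cells and 0 in the 1219 β-cells, which allows a share of up to 0.246% of β-cells with a UMI.

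Of the 4 members tested, 3 were higher in α-cells and none was lower, beside 16.3% of all genes tested that were higher. FOXA1, 1 of these 3, had 63 UMIs in all 1219 β-cells and 0 in 5 of the 16 β-cell sums. It did not pass the filter on low counts in the age fit of β-cells. The members' count and median therefore rest partly on a gene scarce in β-cells. The number called was 2 when cells were thinned to equal depth, where FOXA1 did not pass the filter on low counts. It was also 2 without old female 4 or old male 2. The median fold change of the 4 tested members was 1.13 on the log2 scale, beside 0.11 for all genes. Where only cells with a leading hormone at least 4 times the second were summed, the differences were 2.04 for HNF4A, 1.09 for FOXA2, 0.89 for FOXA3 and 4.52 for FOXA1, with the same 3 members called and a median of 0.38 for all genes. The level in β-cells was 31.8% of that in α-cells for HNF4A, 64.0% for FOXA2, 75.7% for FOXA3 and 28.7% for FOXA1, against 30.0% for GCG. In the other direction, INS in α-cells was at 11.3% and SLC2A2, the glucose transporter of β-cells, at 1.45% of the β-cell level. The part of RNA from other cells in the β-cell levels of the members was not tested.

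**Figure D2:**
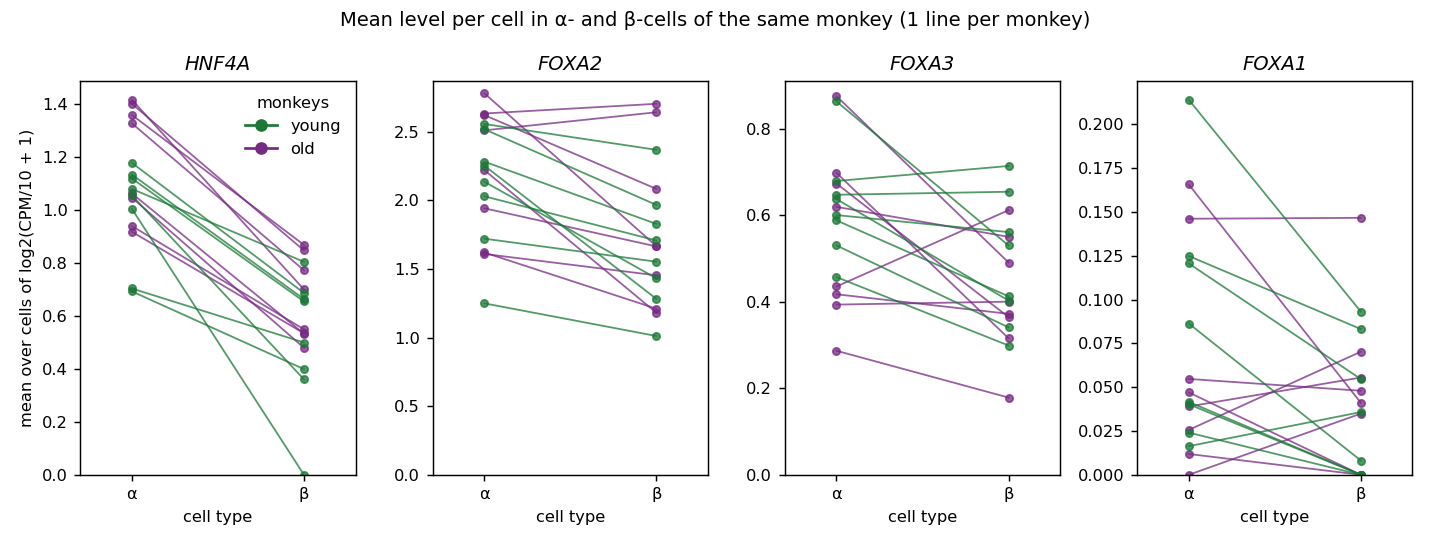
Each line joins the α- and β-cells of 1 monkey (16 lines, green young, purple old), and the axis is the mean over cells of log2(CPM/10 + 1), a scale of its own per gene. All 16 lines fall from α to β for HNF4A, 14 for FOXA2, 12 for FOXA3 and 11 for FOXA1.

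The shares of cells with at least 1 UMI of HNF4A, FOXA2 and FOXA3 were also higher in α-cells after every cell was thinned to 10000 UMIs. HNF4A was detected in 17.8 ± 4.24% of thinned α-cells and 9.26 ± 4.30% of thinned β-cells (SD, n = 16), with α-cells higher in 16 of 16 monkeys. FOXA2 was detected in 39.6 ± 8.65% and 31.4 ± 11.2%, with α-cells higher in 15. The shares for FOXA3 were 10.1 ± 3.27% and 6.28 ± 2.62%, with α-cells higher in 14. FOXA1 was detected in 1.18 ± 1.07% and 1.03 ± 2.31%, with α-cells higher in 10. At full depth, 45.3% of α-cells and 34.2% of β-cells had a UMI of HNF4A, 70.2% and 63.7% had a UMI of FOXA2, and 25.7% and 22.2% had a UMI of FOXA3. As a background, 32 cells led by immune, endothelial or stellate markers, with a median of 28731.5 UMIs, had a UMI of FOXA2 in 5 cells (15.6%), of FOXA3 in 4 (12.5%) and of HNF4A in 3 (9.38%). Pooled, those 32 cells had 3.39 CPM of FOXA2 and 1.69 of HNF4A, against 55.6 and 12.2 in all β-cells, and 2.82 CPM of FOXA3 against 11.6. After thinning, 2 of 28 of those cells (7.14%, 95% exact binomial interval 0.877 to 23.5%) had a UMI of FOXA3 and 1 (3.57%, 0.0904 to 18.3%) had a UMI of HNF4A. These intervals hold the pooled shares of α-cells (10.3% and 17.7%) and of β-cells (6.35% and 9.07%), which were not set apart from this background. For FOXA2, also 1 of 28 cells, the interval lay below the shares of α-cells (39.7%) and β-cells (29.8%). The intervals take cells as independent and leave out the spread between monkeys, so a difference between these groups was not tested. The 43 cells led by ductal markers were themselves typed as α- or β-cells by hormone, and in β-cells those markers were mostly SPP1. Their pooled levels were 60.0 CPM of FOXA2 (41.9% of cells with a UMI) and 10.7 CPM of HNF4A (30.2%). Whether they were ductal cells was not tested.

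At full depth, much of the UMI count of these genes lay in a minority of cells. Other genes of like level were not compared. In α-cells, 320 cells with 10 or more UMIs of HNF4A held 60.1% of its UMIs, whereas 2463 of 4503 cells had none. For FOXA2, 950 α-cells with 10 or more UMIs held 73.4%, and 1340 had none. For FOXA3, 161 α-cells held 50.8%. The α-cells with 10 or more UMIs of HNF4A, of FOXA2 or of FOXA3 came in each case from all 16 monkeys. In β-cells, 24 of 1219 cells had 10 or more UMIs of HNF4A and held 34.6% of its UMIs, and 192 cells held 68.4% of those of FOXA2. For FOXA1, a single α-cell with 98 UMIs carried 14.6% of all α-cell UMIs and 18 cells carried 57.8%, so its sums rest on few cells.

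**Figure D3:**
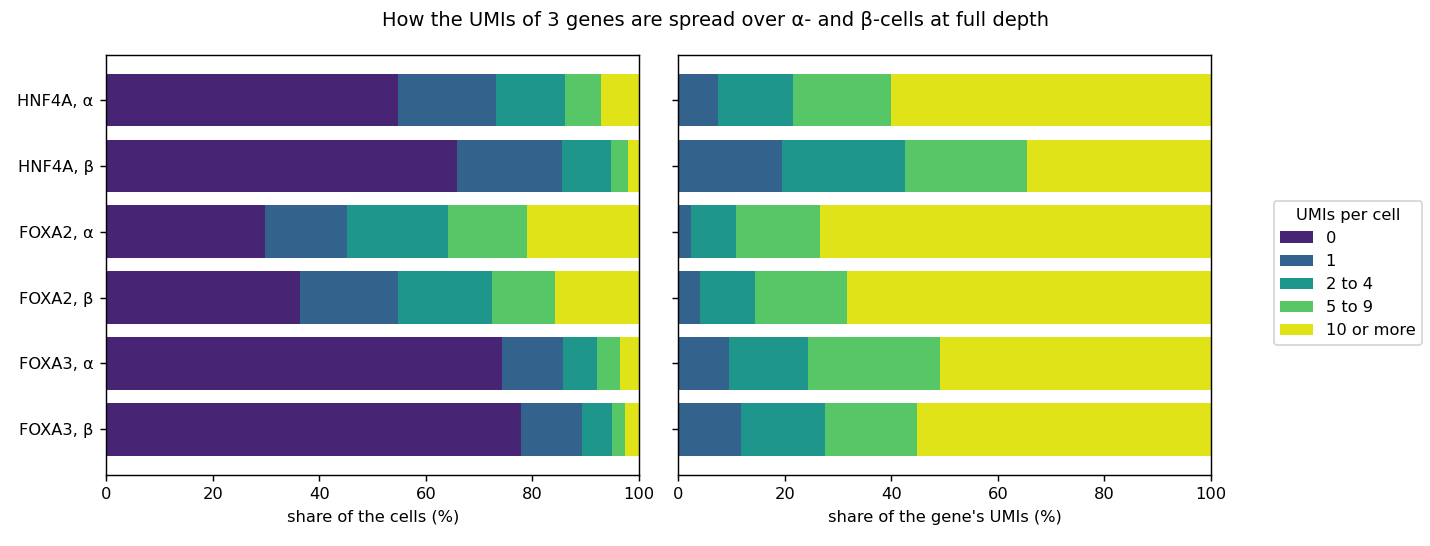
Bars give, for HNF4A, FOXA2 and FOXA3 in all α- and β-cells at full depth, the share of cells (left, %) and the share of the gene's UMIs (right, %) in cells with 0, 1, 2 to 4, 5 to 9 and 10 or more UMIs of that gene. Cells with 10 or more UMIs were 7.11% of α-cells for HNF4A and held 60.1% of its UMIs, against 1.97% of β-cells with 34.6%.

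Detection of FOXA2 in thinned α-cells differed little between cells with and without HNF4A. Among thinned α-cells, 40.5% of those with a UMI of HNF4A also had FOXA2, against 39.5% of those without, and the share was higher where HNF4A was present in 7 of 16 monkeys. FOXA3 was found in 10.9% of thinned α-cells with HNF4A and 10.2% of those without, and in 10.9% of those with FOXA2 and 9.92% of those without. In β-cells, 37.3% of the 110 cells with HNF4A had FOXA2 against 29.0% of the other cells, with 8 of the 9 monkeys that had at least 5 HNF4A-positive β-cells in that direction. Of the thinned α-cells, 44.2% had no UMI of any member, 43.6% of 1 member, 11.2% of 2 and 1.01% of 3 or more.

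In δ-cells the levels of the members varied widely between monkeys, and no member passed edgeR's test against α- or β-cells. HNF4A had a lowest δ-cell level of 1.81 CPM, a median of 8.96 and a highest of 94.2 over 11 monkeys. The values split into 6 monkeys at or below 8.96 and 5 at or above 39.6 CPM. In each of those 5 monkeys, 1 cell with 11 to 34 UMIs gave 52.3% to 100% of the count. FOXA2 in δ-cells ran from 7.08 to 165 CPM and FOXA3 from 1.79 to 86.5 CPM. Between α- and δ-cells, 0 of the 4 members tested were called while 23.2% of all genes were, with values of 0.55 for HNF4A (95% interval -0.35 to 1.45), 0.23 for FOXA2 (-0.33 to 0.79), 0.36 for FOXA1 and -0.44 for FOXA3 on the log2 scale, beside a median of 0.47 for all genes. On the mean log2 level HNF4A was higher in α- than in δ-cells in 9 of 11 monkeys (unadjusted p = 0.032, exact sign-flip test). On the CPM scale it was higher in 6 and lower in 5. The other members gave p from 0.17 to 0.71 against α-cells in the exact sign-flip test. Against β-cells the lowest p in that test was 0.064, for FOXA3. With a leading hormone at least 4 times the second, HNF4A was higher in α- than in δ-cells by 4.06 (adjusted p = 0.024 by edgeR). Only 40 δ-cells met that rule, and the median of all genes was then 1.53. Between β- and δ-cells the values were -1.03 for HNF4A (adjusted p = 0.12), -0.46 for FOXA2 (0.27) and -0.98 for FOXA3 (0.16), beside a median of 0.35 for all genes. By edgeR, 0 of 4 members and 19.8% of all genes were called. DESeq2 called HNF4A, FOXA2 and FOXA3 among 2875 of 12899 genes, with a median of 0.017 for all genes. With the 4-fold hormone rule the β- minus δ-cell values of HNF4A and FOXA2 turned to 2.02 and 0.30. The median of all genes also rose, to 1.15, so FOXA2 remained below it. With edgeR 1 member of the 4 had an unadjusted p under 0.05 against β-cells and 0 had against α-cells.

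HNF4G was the rarest member, and its few strong signals lay in δ-cells. Its 56 δ-cell UMIs came from 3 of 112 cells with 15, 16 and 25 UMIs, in young male 3 (32.0 CPM), young male 2 (37.8 CPM) and old male 4 (36.2 CPM). The other 8 monkeys with δ-cell sums had 0 UMIs. One α-cell had 11 UMIs and 1 PP-cell had 7, and all remaining α-cells with the gene had 1 UMI each. Without the filter on low counts HNF4G was 5.87 lower in α- than in δ-cells on the log2 scale (SE 1.70, adjusted p = 0.016), a call by edgeR that rests on those 3 cells. FOXA1 in δ-cells likewise came from 1 cell with 32 of the 34 UMIs of old female 2 (60.9 CPM), beside 3.60 CPM in old male 2 and 0 in the other 9 monkeys.

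PP-cells held the highest mean of FOXA2, and FOXA2 was the only member that edgeR called in a comparison with them. DESeq2 also called HNF4A as lower in β- than in PP-cells (-1.28, adjusted p = 0.044), among 2915 of 12899 genes called in either direction. On the mean log2 level HNF4A was lower in β- than in PP-cells in 6 of 6 monkeys, with p = 0.03125 in the exact sign-flip test, the smallest it can give here, while edgeR gave -1.09 (adjusted p = 0.18). The 6 PP-cell levels of FOXA2 had a lowest of 19.2 CPM, a median of 108 and a highest of 214. The highest came from old female 1, where 1 cell with 67 UMIs gave 64.4% of the count. FOXA2 was lower in β- than in PP-cells by 1.01 on the log2 scale (SE 0.35, adjusted p = 0.038, 6.67% of genes lower in β-cells, 17.2% called in either direction). In the monkeys with both types, the CPM was lower in β- than in PP-cells in 4 of 6, and the exact sign-flip test on the mean log2 level gave p = 0.13. The call was lost without any of 6 monkeys, among them old female 1 (-0.68, adjusted p = 0.15), when cells were thinned to the same depth (-0.63, adjusted p = 0.21), without the deepest cells (-0.93, adjusted p = 0.057), without the filter on low counts and with at least 20 cells per sum. Between α- and PP-cells no member was called (6.61% of genes), and between δ- and PP-cells none was (10.3%), with 0 of the 4 members at an unadjusted p under 0.05 in either comparison by edgeR.

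No member differed between old and young monkeys in any cell type after adjustment by edgeR's quasi-likelihood test, and few other genes did. In α-cells 0 of 12916 genes were called (0%), with 886 at an unadjusted p under 0.05 and 23 called by DESeq2. In β-cells 5 of 10628 were called (0.0470%), 4 of them higher in old monkeys (0.0376%), and 39 by DESeq2. In δ-cells 0 of 6484 were called (0%, 209 unadjusted, 3 by DESeq2) and in PP-cells 0 of 6568 (0%, 394 unadjusted, 2 by DESeq2). The low number of δ- and PP-cells limits what these comparisons can show. The age tests in α- and β-cells can also miss changes. In simulated counts with a log2 change of 1, they recovered 44% of changed genes in α-cells, 34% in β-cells and 2% in δ-cells. With a log2 change of 2 the shares were 80%, 76% and 17%.

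HNF4A in α-cells showed the lowest unadjusted p of the members for age. Its 8 young values had a lowest of 18.6 CPM, a median of 29.4 and a highest of 36.7. Its 8 old values had a lowest of 19.8, a median of 39.7 and a highest of 79.1 CPM. The groups overlapped, 4 old monkeys exceeded every young one on the CPM scale, and the highest, old female 1, reached 152 CPM in 1 of its 4 libraries and 30.7 to 62.7 in the others. The difference was 0.42 on the log2 scale (SE 0.21, p = 0.066, adjusted p = 0.75 by edgeR). It was 0.25 without old female 1 and 0.70 when every cell was thinned to 10000 UMIs (not called, adjusted p = 0.58 by edgeR). On the mean log2 level the exact permutation test over monkeys gave p = 0.085. In β-cells HNF4A differed by 0.09 (95% interval -0.73 to 0.91).

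The FOXA genes differed between the ages by less than the spread between monkeys. FOXA2 was 80.0 ± 15.9 CPM in young and 95.7 ± 25.0 in old α-cells (n = 8 each), a difference of 0.23 on the log2 scale (95% interval -0.09 to 0.55). In β-cells FOXA2 was 50.9 ± 19.2 CPM in young and 61.4 ± 28.5 in old monkeys, also a difference of 0.23 (-0.31 to 0.77). FOXA3 in α-cells was 17.05 ± 2.82 CPM in young and 15.5 ± 6.10 in old monkeys (-0.19, 95% interval -0.56 to 0.18). In β-cells FOXA3 had a lowest of 6.17, a median of 12.6 and a highest of 43.6 CPM in young monkeys, and a lowest of 3.88, a median of 6.95 and a highest of 20.6 in old ones. Its fitted difference was -0.86 on the log2 scale (SE 0.49, p = 0.091, adjusted p = 0.95 by edgeR), and it was -0.46 without young male 3, -0.32 without the deepest cells and -0.27 with the 4-fold hormone rule. FOXA1 in α-cells differed by 0.12 (95% interval -1.32 to 1.56), an interval too wide to exclude a large change either way.

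In δ- and PP-cells the age comparison had little power. The fitted differences in δ-cells were -0.04 for HNF4A (95% interval -2.38 to 2.30), -0.28 for FOXA2 and -0.47 for FOXA3. In PP-cells FOXA2 was 118 and 125 CPM in the 2 young monkeys and 19.2, 79.7, 97.4 and 214 CPM in the 4 old ones. The 2 young values lay inside the range of the old ones on that scale, and the fit gave -1.17 (SE 0.92, adjusted p = 0.96). On the mean log2 level both young monkeys were above all 4 old ones, and the exact permutation test gave 0.0667, the smallest p this design allows. The age effects in α- and β-cells were also compared with each other, and no member differed (0% of 13322 genes called by edgeR, 806 at an unadjusted p under 0.05), with values from -1.23 for FOXA1 to 0.56 for FOXA3 on the log2 scale.

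Sex was balanced over the ages and was examined in the same fits. No member was called in α-cells (0% of genes, 753 at an unadjusted p under 0.05) or β-cells (0%, 424 unadjusted) by edgeR. FOXA1 in α-cells was 3.49 ± 3.38 CPM in the 8 females and 0.875 ± 0.640 in the 8 males. The male minus female difference from edgeR was -2.07 on the log2 scale (SE 0.76, p = 0.014, adjusted p = 0.77). FOXA3 in α-cells was 13.9 ± 3.28 CPM in females and 18.7 ± 4.72 in males (0.40, p = 0.049, adjusted p = 0.85). Both sets of values overlapped between the sexes. The age effect did not differ between the sexes for any member after adjustment (0.00774% of genes called in α-cells, and 0% in β-cells with 434 at an unadjusted p under 0.05), and the lowest unadjusted p was that of FOXA3 in β-cells (-1.86, p = 0.044 by edgeR).

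Monkeys with more FOXA2 in α-cells tended to have more FOXA2 in β-cells. Across the 16 monkeys Pearson's r was 0.60 (permutation p = 0.015, 0.044 after adjustment over the 3 genes compared) and Spearman's rho was 0.54 (permutation p = 0.034, adjusted 0.10). The relation was 0.62 without the 2 monkeys farthest from the median and was 0.52 among young and 0.62 among old monkeys. For HNF4A r was 0.29 (permutation p = 0.24) and rho 0.43, with r at 0.12 among young and 0.84 among old monkeys and 0.46 without young female 2, the lowest in β-cells. For FOXA3 r was 0.30 (permutation p = 0.26) and rho 0.26, with r at 0.43 among young and 0.15 among old monkeys and 0.17 without old female 2, the lowest in β-cells. Both cell types of a monkey share its libraries and day of collection, and this comparison was chosen after seeing the data.

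**Figure D4:**
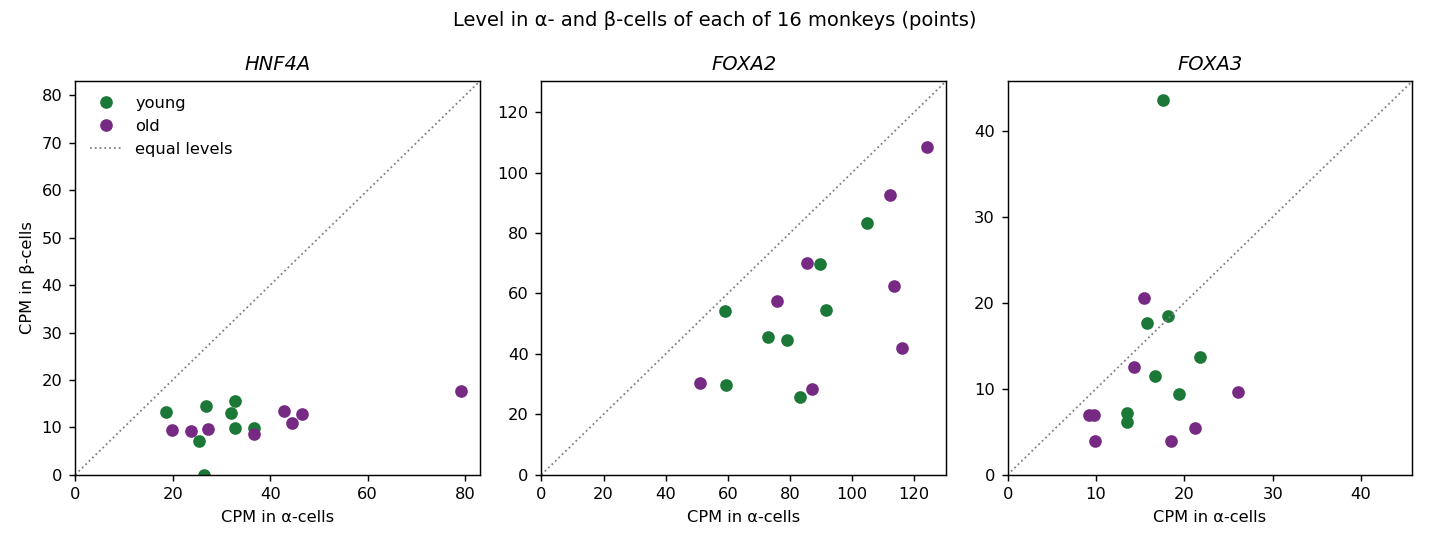
Each point is 1 of 16 monkeys (green young, purple old), with its CPM in α-cells on the horizontal and in β-cells on the vertical axis, for HNF4A, FOXA2 and FOXA3, and a dotted line of equal levels. All points lie below the line for HNF4A and FOXA2, and the FOXA2 points rise from left to right (r = 0.60).

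Partners and regulators of these factors did not share a direction between α- and β-cells. Of 17 listed genes 16 were in the files and 12 were tested, of which 3 were higher in α-cells, 3 were lower and 6 were not called. Of all genes tested, 16.3% were higher and 8.66% lower. The list's median was 0.47 on the log2 scale beside 0.11 for all genes. PPARGC1A, a coactivator of HNF4A in liver, had a mean of 16.4 CPM in α-cells and 0.945 in β-cells (4.10, adjusted p = 1.5e-08, higher in 16 of 16 monkeys). NEUROD1, a factor of all islet cell types, was 124 ± 26.4 and 75.3 ± 22.8 CPM (0.72, adjusted p = 0.0059), and NR2F1, an orphan nuclear receptor, was 3.79 ± 3.95 and 2.10 ± 5.08 CPM (1.89, adjusted p = 0.026). PDX1, the factor that maintains β-cells, was 0.205 ± 0.162 and 8.89 ± 6.55 CPM (-5.33, adjusted p = 4.0e-10, lower in all 16). NR5A2, a nuclear receptor of liver and exocrine pancreas, was 0.687 ± 0.727 and 6.36 ± 5.66 CPM (-3.63, adjusted p = 6.0e-06), and ONECUT1, also known as HNF6, was 0.132 ± 0.331 and 0.934 ± 1.26 CPM (-3.13, adjusted p = 0.0015).

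Among 10 genes of islet cells with HNF or FOXA factors among their known regulators or acting in the same cells, 9 were tested, 2 were higher in α-cells, 5 were lower and 2 were not called, beside 16.3% of all genes higher and 8.66% lower. The median was -1.59 on the log2 scale, beside 0.11 for all genes. Of the higher ones, PCSK2, a convertase of prohormones, was 2030.5 ± 467 CPM in α-cells and 375 ± 127 in β-cells (2.46, adjusted p = 6.1e-23). SLC2A2 was 9.97 ± 10.1 and 689.7 ± 160.2 CPM (-6.61, adjusted p = 5.4e-26) and HADH, a mitochondrial enzyme of fatty acid oxidation, was 55.2 ± 20.7 and 981 ± 269 CPM (-4.20, adjusted p = 8.6e-26). TMEM27, a membrane protein of β-cells, and G6PC2, the islet glucose-6-phosphatase, were also lower in α-cells (-3.48 and -6.37, adjusted p = 6.4e-18 and 4.6e-09). ABCC8, the sulfonylurea receptor of the potassium channel and a gene named outside the fixed rule because it completes the 5, was 607 ± 326 and 1308 ± 422 CPM (-1.21, adjusted p = 2.0e-08).

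Of 18 genes best known as targets in hepatocytes, 17 were in the files and 10 were tested, of which 5 were higher in α-cells, 1 was lower and 4 were not called, beside 16.3% and 8.66% of all genes. The median was 0.99 on the log2 scale, beside 0.11 for all genes. TTR, the thyroxine carrier transthyretin, was the most abundant with 73836 ± 11505 CPM in α-cells and 35458 ± 8389 in β-cells (1.09, adjusted p = 2.8e-18), a level in β-cells of 48.0% of that in α-cells. SERPINA1, the protease inhibitor α1-antitrypsin, was 276 ± 222 and 91.0 ± 83.1 CPM (1.82, adjusted p = 8.6e-07) and 1834 ± 1267 CPM in PP-cells. IGFBP1, a binding protein of insulin-like growth factors, was 3.31 ± 3.38 and 0.631 ± 0.584 CPM (2.31, adjusted p = 7.5e-05), and F7, a clotting factor, was 5.76 ± 5.16 and 2.04 ± 1.52 CPM (1.45, adjusted p = 0.035). RBP4, the retinol carrier, which was named after its values were seen as the last of the 5, differed by 0.62 (adjusted p = 0.034) and reached 7555 ± 3519 CPM in δ-cells. ALB, serum albumin, was the exception with 0.965 ± 1.504 CPM in α-cells and 4.79 ± 8.00 in β-cells (-2.69, adjusted p = 0.0032). PCK1, a gluconeogenic enzyme that liver expresses strongly, had 0 UMIs in all sums.

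**Figure D5:**
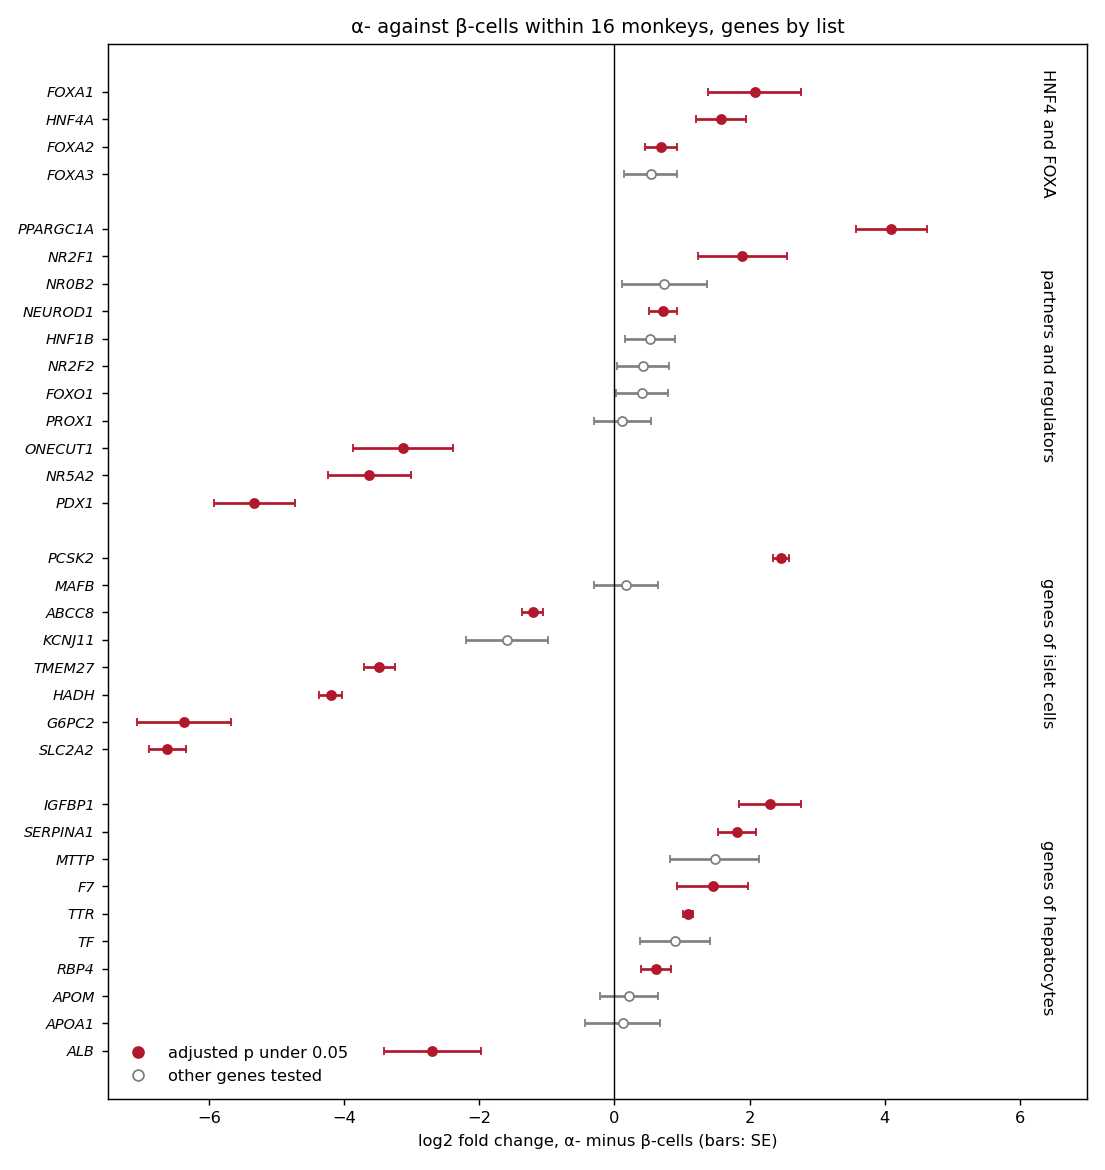
Points are log2 fold changes, α- minus β-cells, with SE bars, from edgeR's fit over the 12899 genes tested, for the members and the genes of the 3 lists that are reported here (red, adjusted p under 0.05, grey open, not called). The called members and most genes of hepatocytes lie to the right of 0, while 5 called genes of islet cells and 3 called partners or regulators lie to the left.

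SERPINA1 was the only gene of these lists that edgeR called between old and young monkeys. In β-cells its 8 young values had a lowest of 12.9 CPM, a median of 34.1 and a highest of 59.1. The 8 old values had a lowest of 47.7, a median of 137 and a highest of 253 CPM. The means were 34.9 ± 16.1 and 147 ± 85.8 CPM, the groups overlapped in their lowest old and highest young values, and the difference was 1.9598 on the log2 scale (SE 0.34, adjusted p = 0.024 by edgeR). The value kept its direction but not its call under thinning (1.91, adjusted p = 0.13), with a leading hormone at least 4 times the second (2.70, adjusted p = 0.81) and without any of 6 monkeys, among them young female 2 (1.90, adjusted p = 0.052). In α-cells SERPINA1 differed by 1.04 (p = 0.012, adjusted p = 0.69), and the age effects in the 2 types did not differ after adjustment (-0.89, adjusted p = 0.75 by edgeR).

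The genes whose levels ran most like a member over the 49 sums of a monkey and cell type were found among 8215 genes with a mean of at least 10 CPM, on log2(CPM + 1). The sums share monkeys and depth, and the correlations are a description. For HNF4A the 5 highest were DMKN (Pearson's r = 0.72), EXO1 (0.66), ENSMFAG00000003406 (0.65), HMGXB4 (0.64) and FADS3 (0.63). Within the 16 α-cell sums alone, HNF4A and DMKN had an r of 0.02, whereas EXO1 stayed at 0.67 and ENSMFAG00000003406 was at 0.75. For FOXA2 they were STK39 (0.78), KMT2A (0.77), CBX6 (0.77), SH3GLB2 (0.74) and CAMSAP3 (0.74), with 0.37, 0.36, 0.68, 0.81 and 0.73 in α-cell sums. The 5 for FOXA3 were LRIG1 (0.61), USP47 (0.60), IQCK (0.58), SYDE2 (0.58) and ENSMFAG00000029774 (0.57), with -0.07 to 0.55 in α-cell sums. Among the members themselves, r over the sums was 0.49 for HNF4A with FOXA2, 0.29 for FOXA2 with FOXA3 and 0.02 for HNF4A with FOXA3.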

How the data were processed

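Per the labels and the study's methods, the authors sequenced single cells with a modified STRT protocol, processed reads with CASAVA 1.8 and TopHat2 2.0.12, and counted molecules per gene (HTSeq, Macaca_fascicularis_5.0). The deposited values are raw UMI counts per gene and cell.

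Here 95 spike-in rows (5.41% of counts) were left out of CPM and tests but counted towards the 10000-UMI filter. Counts were summed per monkey and cell type (at least 5 cells) and tested with edgeR 4.0.16 (R 4.3.3; TMM, filterByExpr, quasi-likelihood test, Benjamini-Hochberg over all genes tested, threshold 0.05), with the monkey as a block between types and sex as a covariate for age. DESeq2 1.42.0 was an alternative. Doublets were not called, and cells above the 95th percentile of UMIs were removed as an alternative. Single values were compared by exact permutation over monkeys, with unadjusted p-values. Intervals of shares and the floors cover counting error only. The SE of a log2 fold change was derived from edgeR's fold change and F statistic, which includes the spread between monkeys. Intervals of log2 fold changes are normal intervals from that SE. They leave out the test's limited degrees of freedom and are somewhat narrow. For FOXA3 between β- and δ-cells the interval was -1.94 to -0.016, although edgeR's unadjusted p was 0.052. The tests were checked on simulated counts.

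The members and lists were chosen with earlier results of these data known. Named genes were the members, up to 4 called genes per list and direction between α- and β-cells, every called list gene for age, and 5 genes of highest correlation per member with a mean of at least 10 CPM. Single values of 2 genes of the lists are not reported here, although the lists' counts and medians include them.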

Additional observations from a re-analysis of the deposited data

Results flagged for a closer look

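Of 31 groups of 4 to 10 monkeys that were examined for a sample standing apart by Dixon's criterion, 9 had one. Chance flags about 1 in 20 groups where values follow a normal distribution. That rate does not hold for sums that are mostly near 0 or set by few cells, as for FOXA1 and HNF4G here. Old female 1 stood at 79.07 CPM of HNF4A in old α-cells (10.2% of the UMIs in the highest of 180 cells). Young male 3 stood at 43.63 CPM of FOXA3 in young β-cells (59.8% in 1 of 44 cells). For FOXA1, young female 2 stood at 7.598 CPM in young α-cells (20.5% in 1 of 362 cells), old female 4 at 9.712 in old α-cells (70.0% in 1 of 178 cells), old female 2 at 60.93 in old δ-cells (94.1% in 1 of 11 cells) and old female 2 at 2.669 in old PP-cells (4 UMIs). For HNF4G, young female 2 stood at 0.6408 CPM in young α-cells (14 UMIs, 11 in 1 cell), old male 4 at 0.2061 in old α-cells (5 UMIs) and old male 4 at 36.24 in old δ-cells (25 UMIs in 1 cell). The part of single cells in these values was not tested further.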

How the results depend on the processing

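HNF4A stayed higher in α- than in β-cells, and called, under the 11 alternatives (1.43 to 2.04 on the log2 scale) and without each of the 16 monkeys (1.52 to 1.66). The number of genes called between these types was 3222, and rose to 6588 with at least 20 cells per sum and 5698 with α- and β-cell sums alone. Over all results, 814 values were counted as unchanged, 22 as having lost the call, 11 as having gained it and 56 as having changed direction. None of the last was a called one, and the causes were not tested. Counts of 2 or 4 members called between α- and β-cells, in place of 3, were among those counted as unchanged. The members called between α- and β-cells were 3, and 2 to 4 under the alternatives. The members called between α- and δ-cells went from 0 to 1 with the 4-fold hormone rule and 1 without the count filter, between β- and δ-cells from 0 to 3 with DESeq2 and 1 without the filter, and between β- and PP-cells from 1 to 0 by thinning, without the deepest cells or without the filter, to 2 with DESeq2, and to 0 to 1 when a monkey was left out. Values that changed direction were, for α- minus δ-cells, FOXA2 (-0.0011 with DESeq2, -0.0013 with RLE scaling). For α- minus PP-cells they were HNF4A (-0.37, at least 20 cells) and FOXA2 (0.041, thinned). For β- minus δ-cells with the 4-fold hormone rule they were HNF4A (2.02), FOXA1 (1.00) and FOXA2 (0.30), beside a median of 1.15 for all genes. For δ- minus PP-cells HNF4A changed (0.15 thinned, 0.021 with DESeq2, 0.023 with RLE). For old minus young they were FOXA1 in α-cells (-0.36 with the 4-fold rule, -0.040 with age alone), FOXA3 in α-cells (0.15, thinned), HNF4A in β-cells (-0.057, at least 20 cells), FOXA2 in β-cells (-0.039, 4-fold rule), HNF4A in δ-cells (0.21 with the stricter cell filter, 0.012 without the count filter, 0.40 with age alone) and FOXA3 in δ-cells (0.15 with age alone). Without the deepest cells the FOXA3 log2 fold change, old minus young delta, was 0.000989.

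Leaving out 1 monkey at a time, the values that changed direction ranged as follows. FOXA1 was -0.037 to 2.65 (α minus δ), -2.10 to 0.62 (β minus δ), -2.42 to 1.66 (δ minus PP) and -0.47 to 0.50 (age, α). FOXA2 was -0.52 to 0.043 (α minus PP) and -0.75 to 0.31 (age, δ). FOXA3 was -0.72 to 0.10 (α minus PP), -0.45 to 0.70 (δ minus PP), -0.99 to 0.11 (age, δ) and -1.02 to 1.35 (age, PP). HNF4A was -0.54 to 0.51 (δ minus PP), -0.057 to 0.21 (age, β), -0.78 to 0.59 (age, δ) and -0.98 to 1.35 (age, PP).

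Monkeys of the same number in the young and old groups did not deviate together (correlations of -0.05 to 0.18 in α-cells and -0.14 to 0.12 in β-cells). With this replicate block the age fit called 0 genes in α-cells and 6 in β-cells, no member among them, HNF4A in α-cells was 0.35 and FOXA1 turned to -0.49. Between types, without the monkey as a replicate block, 2 members were called for β- against δ-cells and 2 for β- against PP-cells, FOXA1 was no longer called between α- and β-cells (1.69), and its α- minus δ-cell value turned to -0.67. The age tests in δ- and PP-cells with stricter cell rules, and a block in PP-cells, had too few monkeys to be run. Depth limits HNF4G, FOXA1 and all members in δ- and PP-cells, where single cells set the sums.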
